A study of Homo sapiens with 8 samples.

Results

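A set of 10 genes of the Hippo pathway and its YAP output was followed through an RNA sequencing series on MCF-10A, an established non-tumorigenic line of human breast epithelial cells. They were chosen by symbol among the 60617 Ensembl genes of the count table: the kinases LATS1 and LATS2, the coactivators YAP1 and WWTR1 (which encodes TAZ), the DNA-binding factor TEAD1, and the target genes CCN1, CCN2, ANKRD1, AMOTL2 and AXL. All 10 of 10 were found and all passed the filter on low counts, among 17693 genes tested. The groups were Empty cells left untreated, Empty cells given 1 µM JG-98 for 12 h, NeuT cells left untreated and NeuT cells given the same dose for the same time, with 2 libraries in each group. The compound blocks Hsp70 chaperones, and the submitters give drug sensitivity of transformed cells as their question. What NeuT cells carry, and whether a line is 1 clone, is not spelled out in the labels. The drug was compared with untreated cells, and no solvent is named for either. All cells were grown with epidermal growth factor, horse serum, insulin, hydrocortisone and cholera toxin. No label says whether the libraries of a group came from separate cultures, so the p-values measure the spread between these libraries, which may be technical.

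The Hippo pathway links cell contact, cell shape and polarity to transcription. Its upstream kinases activate LATS1 and LATS2, which phosphorylate YAP and TAZ and keep them in the cytoplasm or send them to degradation. When they are not phosphorylated, YAP and TAZ enter the nucleus, bind TEAD factors and switch on target genes. These code for matrix proteins such as CCN1 and CCN2, receptors such as AXL, and proteins that restrain YAP such as LATS2 and AMOTL2. In breast epithelial cells this output is known to respond to growth factors, density and stiffness. RNA levels measure neither the phosphorylation nor the location of these proteins.

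TEAD factors bind sites with the letters GGAATG, which read CATTCC on the opposite strand. These letters were searched on both strands in the 250 bases before each start site listed in RefSeq promoters (GRCh38.p14), where 11.9% of 35116 promoters held them and 0.94% held them at least 2 times. Promoters were listed for 8 of the 10 genes, 12 promoters in all. None was listed for CCN1 and TEAD1, which were therefore not searched. Of the 12 promoters 5 held the letters, 1 each for YAP1, CCN2, ANKRD1, AMOTL2 and AXL. A match is a description and not a shown binding site. The promoters below are those of CCN2, with the most matches among the 12, of YAP1 itself, and of the first AXL start, which held none and belongs to the gene that differed most between the lines. Each is given 5′ to 3′ on the gene's strand, with GGAATG in capitals.
CCN2, chr6:131951373-131951622, minus strand: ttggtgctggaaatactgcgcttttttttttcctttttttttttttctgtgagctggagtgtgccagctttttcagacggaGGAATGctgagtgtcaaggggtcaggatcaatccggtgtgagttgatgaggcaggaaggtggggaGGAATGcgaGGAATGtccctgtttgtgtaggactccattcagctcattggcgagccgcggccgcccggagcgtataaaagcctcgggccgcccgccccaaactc
YAP1, chr11:102110197-102110446, plus strand: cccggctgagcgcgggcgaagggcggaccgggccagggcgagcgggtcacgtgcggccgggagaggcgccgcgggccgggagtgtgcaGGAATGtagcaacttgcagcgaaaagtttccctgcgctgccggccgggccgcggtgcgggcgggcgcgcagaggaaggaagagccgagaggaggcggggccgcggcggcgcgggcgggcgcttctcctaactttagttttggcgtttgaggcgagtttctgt
AXL, chr19:41218973-41219222, plus strand: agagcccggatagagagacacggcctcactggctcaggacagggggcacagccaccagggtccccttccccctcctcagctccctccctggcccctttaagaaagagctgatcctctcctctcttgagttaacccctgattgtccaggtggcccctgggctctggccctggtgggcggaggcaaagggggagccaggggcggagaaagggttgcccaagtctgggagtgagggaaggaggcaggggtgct

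In the CCN2 promoter the 3 matches began 169, 104 and 95 bases before the start. In that of ANKRD1 the 2 matches began 220 and 128 bases before it. The letters TGANTCA of the AP-1 motif, with N for any base, read the same on both strands and were found in 6.57% of all promoters. Among the 12 they were found in 2, as TGATTCA for ANKRD1 and as TGAATCA for the second LATS1 start. In neither case did they overlap a match to the first motif.

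Total counts lay between 55050996 and 56861971 in 7 libraries and were 37341458 in treated Empty replicate 1. Levels are given as CPM, the counts of a gene per 1e+06 counts of the library scaled by TMM (trimmed mean of M values), and where genes are compared with each other as RPKM, CPM per 1000 bases of merged exons. A gene is described as called where its edgeR adjusted p-value was under 0.05. Replicates of treated NeuT stood furthest apart, with a median difference of 0.106 on the log2 scale over 9551 well-measured genes, against 0.0537 to 0.0783 in the other groups. In every library 6 luminal markers summed to 3800 to 4440 CPM and 7 basal epithelial markers to 17600 to 21800 CPM. Of these 7 basal markers TP63 was at only 2.74 CPM in untreated Empty and 7.5 CPM in untreated NeuT. Between the untreated lines 6 of these 7 were called, 5 as higher and 1 as lower in NeuT, and of 6 luminal markers 4 were called, KRT8, KRT18 and CDH1 as higher and EPCAM as lower (-1.07, SE 0.065), beside 42.0% of all genes called. Of 5 endothelial markers 3 stayed under 1 CPM, PECAM1 was lower in untreated NeuT (9.1 CPM against 12.5 CPM), and CDH5 was higher at only 4 to 34 counts. Of 7 immune markers 6 stayed under 1 CPM in all libraries, and the other, CD14, was higher in untreated NeuT, at 11.4 CPM against 6.55 CPM. Of 7 fibroblast markers 5 stayed under 1 CPM. The summed level of that list was 8.52 to 9.82 CPM in Empty and 68.4 to 83 CPM in NeuT. In NeuT it came mostly from DCN, a matrix proteoglycan gene, at 72.6 CPM untreated against 3.38 CPM in untreated Empty. Proliferation markers differed too. All 15 tested were called as lower in NeuT when both lines were untreated, with a summed level of 1250 to 1260 CPM against 2940 CPM in Empty. The part of these differences in the results below was not tested. In bulk RNA, fewer cells of a type and less RNA per cell cannot be told apart.

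Per base of exon, YAP1 was the most abundant of the 10 in all 4 groups, with 24 ± 0.52 RPKM in untreated Empty and 26.4 ± 0.89 RPKM in untreated NeuT (SD, n = 2 each). In untreated Empty CCN1 came next with 15.2 ± 0.87 RPKM (SD, n = 2), followed by TEAD1, WWTR1 and AMOTL2 at 11.5 to 11.8 RPKM, whose libraries overlapped, and by AXL at 9.63 ± 0.91 RPKM (SD, n = 2). CCN2 and LATS2 overlapped at 4.6 and 4.49 RPKM, LATS1 lay below them at 3.35 RPKM, and ANKRD1 was at 0.0799 RPKM. In untreated NeuT the order differed. AMOTL2 stood at rank 2 with 15.3 ± 1.1 RPKM, CCN1 stood at rank 5 with 8.42 ± 0.79 RPKM, and AXL at rank 9 with 3.09 ± 0.049 RPKM (SD, n = 2 each). WWTR1, at 13.8 RPKM, stood above TEAD1, at 12 RPKM, without overlap. CCN2, LATS2 and LATS1 followed CCN1 in the same order as in Empty, but here the libraries of LATS2 and LATS1 overlapped. YAP1 exceeded WWTR1 in RPKM by a ratio of 1.9 to 2.14 in every library.

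**Figure D1:**
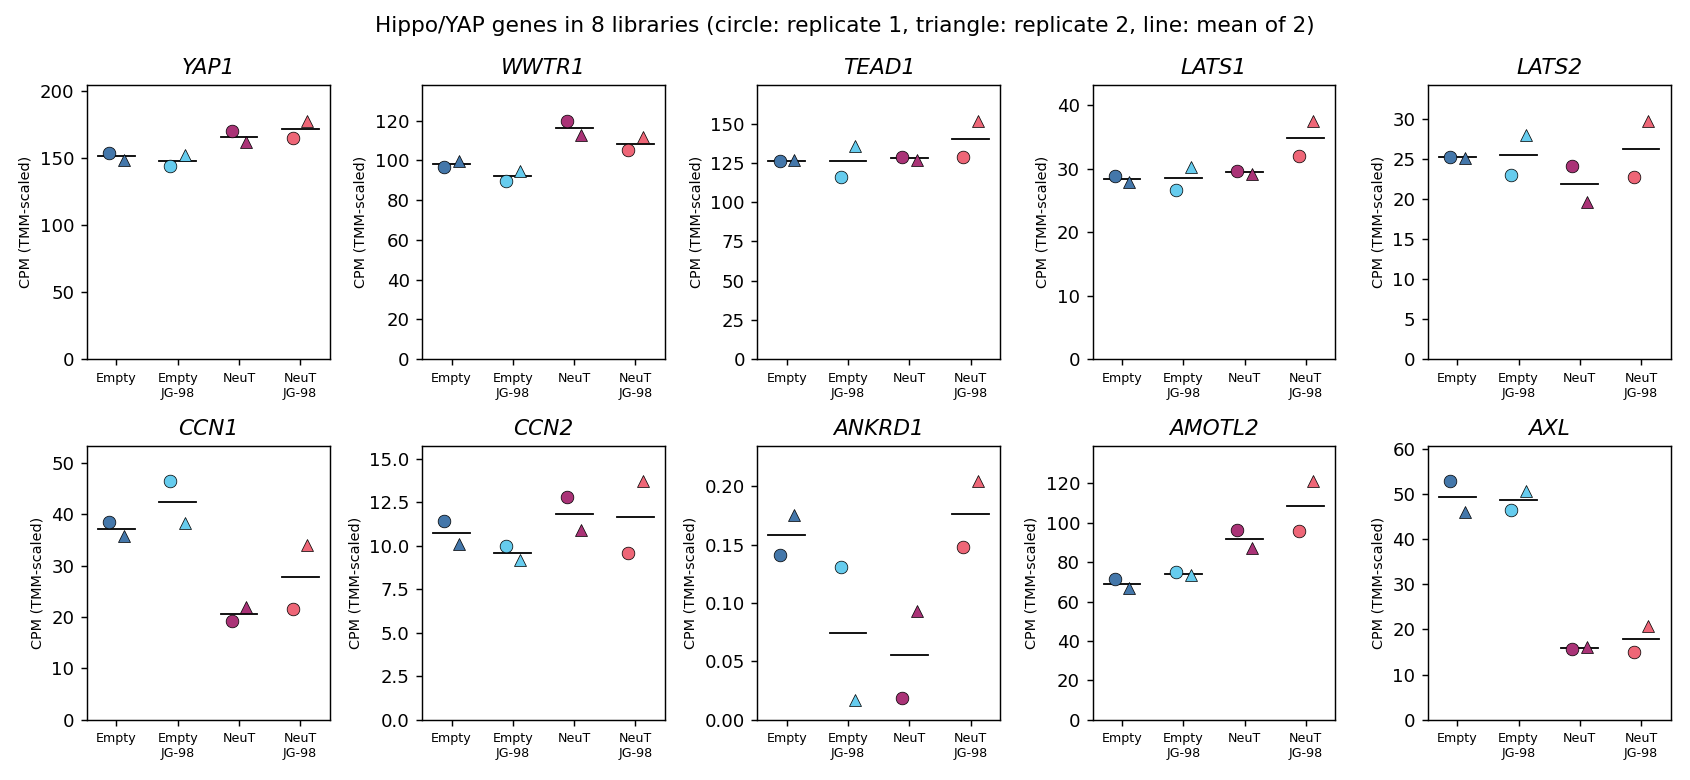
CPM (TMM-scaled, linear axes from 0) of the 10 genes in each library, with replicate 1 as circles, replicate 2 as triangles and the mean of 2 as a line. AXL and CCN1 are lower and AMOTL2 and WWTR1 higher in the untreated NeuT libraries than in the untreated Empty ones, and in treated NeuT the triangle lies above the circle in all 10 panels.

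Between the untreated lines, 4 of the 10 genes were called, WWTR1 and AMOTL2 as higher and CCN1 and AXL as lower in NeuT. This share is close to the background, since 42.0% of all genes tested were called in that comparison, 21.2% as higher and 20.8% as lower. Of the called genes 50.5% were higher in NeuT, and 40.7% with total counts in place of TMM scaling. The median log2 difference of the 10 genes was 0.0366, against -0.0156 over all genes tested. The called target genes lay on both sides, and the largest of the 10 differences was that of AXL. Without untreated NeuT replicate 1 only AMOTL2 and AXL were called, with 29.5% of all genes.

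Of the coactivators 1 was called. WWTR1 (ENSG00000018408, chromosome 3, 149517235 to 149736714) was at 96.9 and 99.6 CPM in untreated Empty and at 120 and 113 CPM in untreated NeuT. Both NeuT libraries were above both Empty libraries. The log2 difference of 0.24 (SE 0.060) was called (edgeR adjusted p-value 0.00315), and without untreated NeuT replicate 1 it was not (0.0545). YAP1 (ENSG00000137693, chromosome 11, 102110447 to 102233424) was at 154 and 149 CPM in untreated Empty and at 170 and 162 CPM in untreated NeuT, again without overlap. Its log2 difference of 0.14 (SE 0.058) was not called (edgeR adjusted p-value 0.0681). It passed in 4 of 15 alternative settings, among them the fit of only the 4 libraries compared, with adjusted p-values from 0.00347 to 0.363. TEAD1 (ENSG00000187079, chromosome 11, 12674421 to 12944737), through which the coactivators reach DNA, was at 126 and 127 CPM in untreated Empty and at 129 and 127 CPM in untreated NeuT. The log2 difference was 0.02 (SE 0.080; edgeR adjusted p-value 0.862). Antisense transcripts share 10.1% of the exonic bases of YAP1 and 9.7% of those of WWTR1, and the use of strand in counting is not given in the sources used here.

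Neither kinase was called between the untreated lines. LATS1 (ENSG00000131023, chromosome 6, 149658153 to 149718105) was at 28.8 and 28 CPM in untreated Empty and at 29.7 and 29.2 CPM in untreated NeuT. NeuT exceeded Empty by 0.05 on the log2 scale (SE 0.086; edgeR adjusted p-value 0.666). LATS2 (ENSG00000150457, chromosome 13, 20973036 to 21061586), which is both a kinase of the pathway and one of its targets, was at 25.3 and 25.1 CPM in untreated Empty and at 24.1 and 19.6 CPM in untreated NeuT. The 2 NeuT libraries were the lower ones, but they lay further from each other than the nearer one lay from Empty. Its log2 difference of -0.20 (SE 0.14) was not called (edgeR adjusted p-value 0.273), although it passed when only the 4 libraries compared were fitted (0.0496).

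Among the targets, AXL (ENSG00000167601, chromosome 19, 41219223 to 41261766), a receptor tyrosine kinase, was at 52.8 and 46.1 CPM in untreated Empty and at 15.7 and 16.1 CPM in untreated NeuT. The lines were far apart next to the spread of either. NeuT held 0.321 of the Empty level. The log2 difference was -1.64 (SE 0.12), which passed in the fit of all 8 libraries (edgeR adjusted p-value 3.65e-07) and under all 15 alternatives. CCN1 (ENSG00000142871, chromosome 1, 85580761 to 85583950), which encodes a secreted matrix protein formerly named CYR61, was at 38.6 and 35.7 CPM in untreated Empty and at 19.2 and 21.9 CPM in untreated NeuT. The fold was 0.554 and the log2 difference -0.85 (SE 0.23; edgeR adjusted p-value 0.0292). The direction held under all 15 alternatives, but the call did so under only 9, with adjusted p-values from 2.99e-09 to 0.116. It was lost with the replicate block (0.0639), without the filter (0.0562) and without any one of the 4 untreated libraries (0.0636 to 0.116).

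AMOTL2 (ENSG00000114019, chromosome 3, 134355874 to 134375479), whose protein binds YAP at cell junctions and restrains it, went the other way. It was at 71.3 and 66.7 CPM in untreated Empty and at 96.2 and 87.2 CPM in untreated NeuT, with no overlap. NeuT exceeded Empty by 0.41 on the log2 scale (SE 0.091; edgeR adjusted p-value 0.00237), and the call held under all 15 alternatives. CCN2 (ENSG00000118523, chromosome 6, 131948176 to 131951372), the matrix protein gene whose promoter is printed above, was at 11.4 and 10.1 CPM in untreated Empty and at 12.8 and 10.9 CPM in untreated NeuT. Its libraries overlapped, and the value of 0.13 on the log2 scale (SE 0.14) did not pass (edgeR adjusted p-value 0.491). The ratio of CCN1 to CCN2 in RPKM was therefore 3.25 and 3.37 in untreated Empty and 1.44 and 1.93 in untreated NeuT. ANKRD1 (ENSG00000148677, chromosome 10, 90912096 to 90921276), a nuclear ankyrin repeat protein gene often used as a YAP readout, had only 1 to 11 counts per library. A count of 0 leaves room for up to 3 counts, or 0.0511 to 0.0787 CPM here, so its level was at or near the limit of detection and no fold is given. Such limits cover counting error only.

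**Figure D2:**
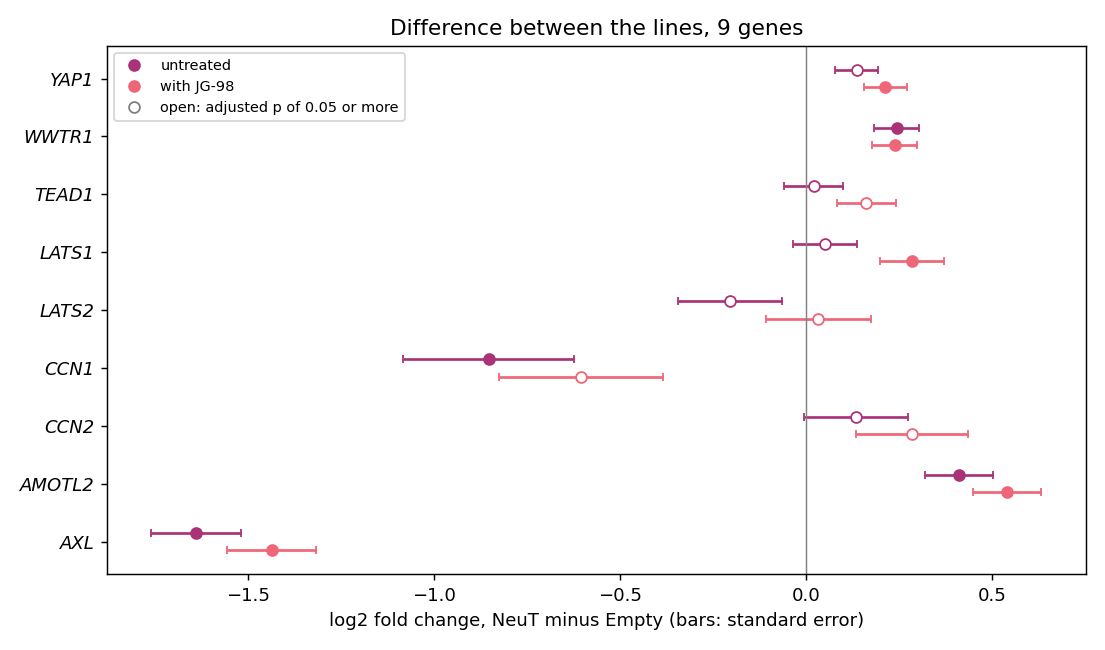
Log2 fold change of NeuT over Empty for 9 of the genes (ANKRD1 left out for its low counts), without and with JG-98, with standard errors as bars and filled points where the edgeR adjusted p-value was under 0.05. AXL lies near -1.64 and -1.44, and AMOTL2 near 0.41 and 0.54.

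Under JG-98 the same comparison called 5 of the 10, with 41.7% of all genes called, 21.7% as higher and 20.0% as lower. Of the called genes 52% were higher in NeuT with TMM scaling and 41% with total counts. WWTR1 (log2 difference 0.24, SE 0.060), AMOTL2 (0.54, SE 0.091) and AXL (-1.44, SE 0.12) were called in the same direction as without the drug. YAP1 (0.21, SE 0.058; edgeR adjusted p-value 0.0067) and LATS1 (0.28, SE 0.086; 0.0133) were called as higher in NeuT here. Both calls were lost with total counts (0.0616 and 0.0603) and without treated Empty replicate 1 (0.0722 and 0.148), the shallowest library, and that of LATS1 also without treated NeuT replicate 2 (0.152). CCN1 was not called (log2 difference -0.60, SE 0.22; edgeR adjusted p-value 0.0838), nor were TEAD1, LATS2, CCN2 and ANKRD1. Among 15 alternatives CCN1 passed in 4, with adjusted p-values from 1.02e-06 to 0.268, TEAD1 in 3 and CCN2 in 2. DESeq2 called 6 of the 10, with CCN1 added, beside 38.5% of all genes in that fit. Without the filter edgeR called 7, with TEAD1 and CCN2 added, beside 23.3% of the genes then tested. The number called depended on the treated libraries. It was 8, against a background of 39.7%, without treated NeuT replicate 1, and 3, against 31.9%, without treated Empty replicate 1. No difference between the 2 line comparisons is shown for any of the 10 genes, because the interaction of line and drug was called for none (edgeR adjusted p-values 0.627 to 0.996), nor by DESeq2. Of all genes tested 0.00565% were called for it, which is 1 gene. Of the 10 genes only ANKRD1 had an unadjusted edgeR p-value under 0.05 (0.044), beside 1378 of all 17693 genes tested.

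JG-98 was then compared with no treatment within each line. In Empty cells none of the 10 genes was called by edgeR, against 0.339% of all genes. The log2 fold changes of the 9 genes other than ANKRD1 lay between -0.17 and 0.19. The lowest unadjusted edgeR p-value among the 10 was 0.14, so 0 were under 0.05, beside 1739 of all 17693 genes tested. DESeq2 also called 0 of the 10, beside 151 of all genes. CCN1 was at 38.6 and 35.7 CPM without and at 46.4 and 38.3 CPM with the drug, and the upper treated library was the shallow one. WWTR1 was at 96.9 and 99.6 CPM without and at 89.5 and 94.6 CPM with it. The groups did not overlap for WWTR1, but the log2 fold change of -0.09 (SE 0.060) was not called (edgeR adjusted p-value 0.657). Nor did they overlap for CCN2, lower with the drug, and AMOTL2, higher with it, which were not called either (edgeR adjusted p-value 0.769 for both). The same held for ANKRD1, lower with the drug at its few counts.

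In NeuT cells edgeR likewise called none of the 10, against 3.01% of all genes, and DESeq2 called none, beside 722 of all genes. By edgeR 2 had an unadjusted p-value under 0.05, LATS1 (0.012) and AMOTL2 (0.021), beside 2829 of all 17693 genes tested. The largest log2 fold change apart from ANKRD1 was that of CCN1, at 0.43 (SE 0.23; edgeR adjusted p-value 0.451). The values of LATS1, AMOTL2 and LATS2 were 0.24 (SE 0.085), 0.24 (SE 0.090) and 0.26 (SE 0.14). AMOTL2 passed when the filter on low counts was left off, where 3.13% of all genes did. The median over the 10 genes was 0.208, against 0.000213 over all genes tested.

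For CCN1, AXL and AMOTL2 the treated replicates differed. CCN1 stood at 19.2 and 21.9 CPM in the untreated NeuT libraries, at 21.6 CPM in treated replicate 1 and at 34 CPM in treated replicate 2. AXL stood at 15.7 and 16.1 CPM, then at 15.1 and 20.8 CPM. AMOTL2 stood at 96.2 and 87.2 CPM, then at 95.6 and 121 CPM. In each of these 3 treated replicate 1 was within or close to the untreated range and replicate 2 above it. LATS1 stood at 29.7 and 29.2 CPM untreated and at 32 and 37.6 CPM treated, so that both treated libraries were above both untreated ones, and its log2 fold change was 0.111 without treated replicate 2.

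Of the 2 treated NeuT libraries, replicate 2 had the higher level of all 10 genes, by ratios from 1.07 for YAP1 and WWTR1 to 1.57 for CCN1, with a median log2 difference of 0.356. For ANKRD1 this rests on 8 and 11 counts. Over all genes tested 50.8% were higher in that library. Of a list of 22 commonly used YAP and TAZ targets, which includes 6 of the 10, 19 were higher in it. The same tally for replicate 2 was 5 in untreated Empty, 11 in treated Empty and 8 in untreated NeuT. In the other groups 3 to 6 of the 10 were higher in replicate 2. In treated Empty these were YAP1, WWTR1, TEAD1, LATS1, LATS2 and AXL, with ratios of 1.06 to 1.22, beside 1.07 to 1.38 for the same 6 genes in treated NeuT. Total counts were 55050996 in treated NeuT replicate 1 and 55906707 in replicate 2. Of the 15 proliferation markers 4 fell with JG-98 in NeuT, beside 1.01% of all genes, and 0 were called in Empty, beside 0.339%. At an unadjusted edgeR p-value under 0.05 the markers numbered 12 in NeuT and 5 in Empty, beside 2829 and 1739 of all 17693 genes tested. For the interaction edgeR called 0 of the 15, with 6 at that level, beside 1 and 1378 of all genes. The summed level of these 15 markers was 997 to 1140 CPM in treated NeuT, and their part in this difference was not tested.

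Leaving out treated NeuT replicate 1 made 6 of the 10 pass as higher with JG-98 (TEAD1, LATS1, LATS2, CCN1, AMOTL2 and AXL), against a background of 11.4% called, 6.27% as higher, with log2 fold changes from 0.248 to 0.722. The interaction then passed for CCN1 (0.532, edgeR adjusted p-value 0.0329) and AXL (0.407, 0.0418), with 4.16% of all genes. In that fit the lone treated NeuT library is assumed to vary like the other groups. Leaving out treated NeuT replicate 2 made none pass, and the fold change of CCN1 was then 0.0634 and that of AXL -0.0769. In the authors' deposited table for NeuT the adjusted p-values of the 10 genes ran from 0.212 to 0.936, and in the authors' deposited table for Empty from 0.417 to 0.999.

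**Figure D3:**
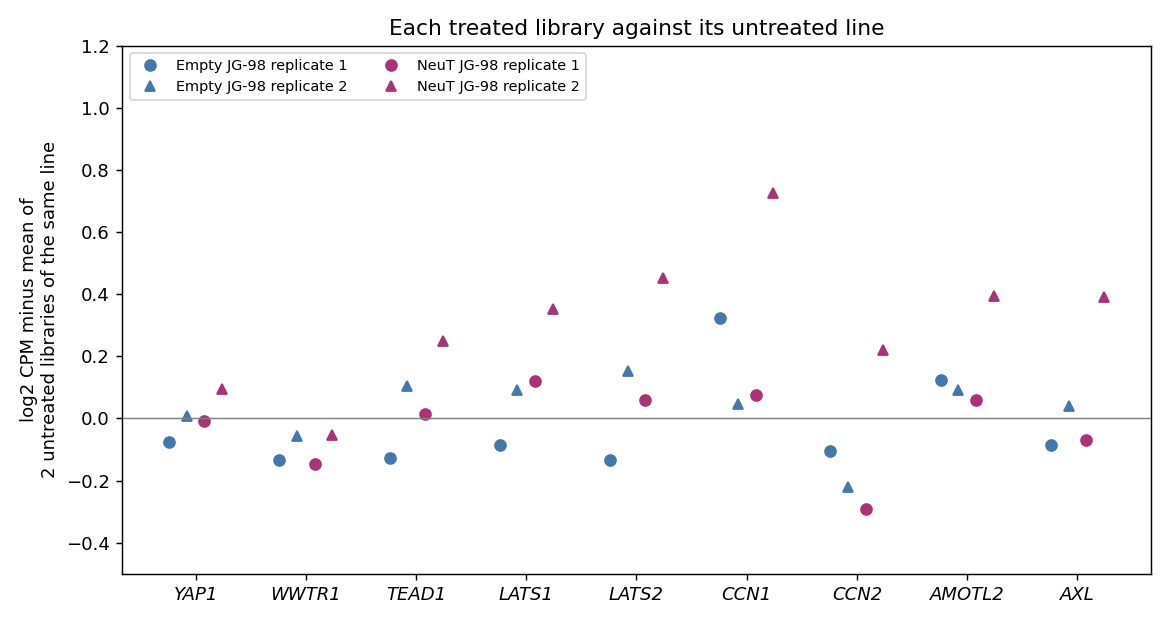
Log2 CPM of each treated library minus the mean of the 2 untreated libraries of its line, for 9 of the genes, with Empty in blue, NeuT in purple, replicate 1 as circles and replicate 2 as triangles. The purple triangles (treated NeuT replicate 2) are the highest of the NeuT points for every gene, reaching 0.7259 for CCN1, while its purple circle is at 0.0743.

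The rest of the pathway was described from lists of its parts. The counts between the untreated lines are to be read against 42.0% of all genes called, 21.2% as higher and 20.8% as lower. In the kinase core of 7 genes, 2 were called, STK4, the gene of the kinase MST1 (0.38, SE 0.079), and SAV1, a scaffold for it (0.22, SE 0.071), both higher in NeuT. The call of SAV1 was lost with total counts (0.0962) and without untreated NeuT replicate 1 or either untreated Empty library (0.064 to 0.158). Of 22 upstream regulators 20 were tested, and 7 were called, 5 as higher and 2 as lower in NeuT. MAP4K4, a kinase that can phosphorylate LATS proteins, was at 514 ± 6.6 CPM in untreated Empty and 880 ± 45 CPM in untreated NeuT (SD, n = 2 each), with a log2 difference of 0.78 (SE 0.090). AMOTL1, a relative of AMOTL2, was higher by 0.60 (SE 0.097). WWC1 (-0.32, SE 0.064), the gene of the scaffold KIBRA, and its relative WWC2 (-0.54, SE 0.076) were lower, and 25.8% of the exonic bases of WWC2 overlap another gene. All of these passed with edgeR adjusted p-values of at most 0.0193.

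Of 10 coactivators, TEAD factors and VGLL cofactors, which compete with YAP for TEAD proteins, 9 were tested and 7 called between the untreated lines, 5 higher and 2 lower in NeuT, beside 42.0% of all genes called, 21.2% as higher and 20.8% as lower. TEAD4 was lower (27.4 ± 0.39 CPM in Empty and 16.6 ± 1.5 CPM in NeuT; SD, n = 2 each; log2 difference -0.72, SE 0.095), while TEAD2 (0.38, SE 0.079) and TEAD3 (0.19, SE 0.064) were higher. In untreated Empty cells the TEAD genes stood at 11.8 RPKM for TEAD1, 7.9 RPKM for TEAD2, 13 RPKM for TEAD3 and 12 RPKM for TEAD4. TEAD4 was at 7.31 RPKM in untreated NeuT. VGLL1 was lower in NeuT (-1.24, SE 0.16), and VGLL3 (0.38, SE 0.069) and VGLL4 (0.53, SE 0.084) were higher, although 23.7% of the exonic bases of VGLL4 overlap other genes. The edgeR adjusted p-values were at most 0.0209.

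Of the 22 targets 16 were called between the untreated lines, 8 higher and 8 lower in NeuT, a share of calls to be read against the 42.0% of all genes. The list did not move one way, and its median log2 difference was -0.171, beside -0.0156 for all genes. NT5E, which encodes the surface enzyme CD73, was at 192 ± 7.6 CPM in Empty and 619 ± 4.2 CPM in NeuT (SD, n = 2 each; log2 difference 1.69, SE 0.064). IGFBP3, a binding protein of insulin-like growth factors, was higher by 1.05 (SE 0.057), and F3, the tissue factor gene, by 0.80 (SE 0.053). TGFB2, a secreted growth factor gene, was lower (58.4 ± 4.2 CPM in Empty and 21.4 ± 0.15 CPM in NeuT; SD, n = 2 each; log2 difference -1.45, SE 0.072), and 24.8% of its exonic bases overlap other genes. These 4 passed with edgeR adjusted p-values of at most 2.53e-09. With JG-98, edgeR called 3 of the 22 in NeuT, 2 as higher and 1 as lower, against 2.01% and 1.01% of all genes. In Empty edgeR and DESeq2 called 0 of the 22, beside 60 and 151 of all 17693 genes tested. By edgeR 3 of the 22 had an unadjusted p-value under 0.05, beside 1739 of all genes. Without the filter edgeR called 1, GADD45A, beside 282 of the genes then tested. In NeuT GADD45A, a stress-inducible gene, rose from 64.7 ± 1.8 to 117 ± 21 CPM (SD, n = 2 each; log2 fold change 0.86, SE 0.14; edgeR adjusted p-value 0.0248) and was not called with the replicate block (0.0828) or without either untreated NeuT library (0.1 and 0.144). MYOF (0.22, SE 0.058) and FJX1 (-0.34, SE 0.088) passed narrowly, at 0.0493 and 0.0472, and neither passed with only the 4 libraries compared. MYOF was also lost with RLE in place of TMM scaling (0.0594) and in 7 of the 8 fits that left out 1 library, and FJX1 in 5 of those 8. The count of 3 ran from 0 without either untreated NeuT library to 8 without treated NeuT replicate 1, and the share of all genes called moved with it, from 0.706% and 0.766% to 11.4%.

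**Figure D4:**
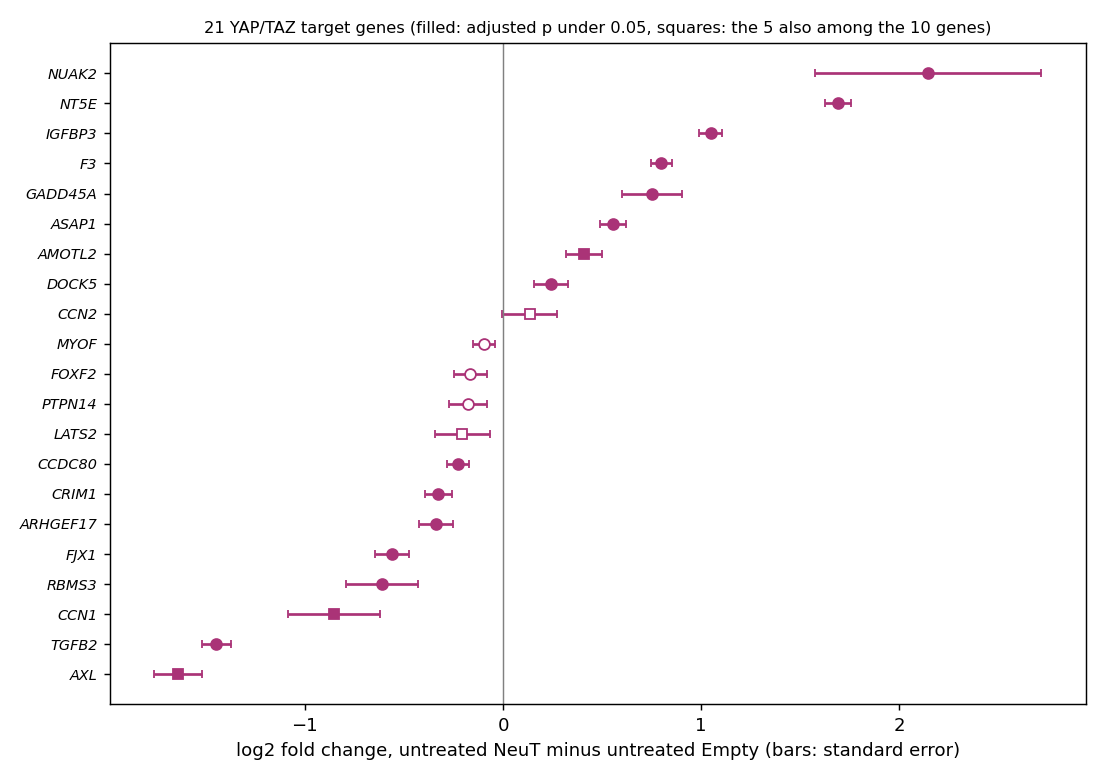
Log2 fold change of untreated NeuT over untreated Empty for 21 of the 22 target genes (ANKRD1 left out), with standard errors as bars, filled symbols where the edgeR adjusted p-value was under 0.05, and squares for the 5 that are also among the 10 genes. The called genes lie on both sides of 0, from AXL at -1.64 to NT5E at 1.69 and NUAK2 at 2.15, whose value rests on 4 to 10 counts in untreated Empty and 30 in each untreated NeuT library.

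Between the treated lines, where 41.7% of all genes were called, 17 of the 22 targets were called, 9 as higher and 8 as lower, with a median of 0.0995 beside -0.00111 for all genes. NT5E (1.77, SE 0.064), GADD45A (1.13, SE 0.15) and IGFBP3 (0.99, SE 0.057) were higher in NeuT, and TGFB2 (-1.46, SE 0.072) and RBMS3 (-1.36, SE 0.18) were lower. In the kinase core 3 of 7 were called as higher, STK4, SAV1 and LATS1. Of 20 upstream regulators 10 were called, 7 as higher and 3 as lower. MAP4K4 (0.93, SE 0.090) and AMOTL1 (0.76, SE 0.098) were again higher, and NF2 (-0.30, SE 0.056), WWC2 (-0.27, SE 0.077) and AJUBA (-0.24, SE 0.078) were lower. The calls of WWC2 and AJUBA were lost without treated NeuT replicate 1 (0.107 and 0.158) and without treated Empty replicate 2 (0.0556 and 0.138), and that of AJUBA also without treated Empty replicate 1 (0.0513) and with only the 4 libraries compared (0.0515). Of 9 coactivator, TEAD and VGLL genes 6 were called, with VGLL4 (0.67, SE 0.085), VGLL3 (0.45, SE 0.069), WWTR1 and YAP1 higher and VGLL1 (-1.17, SE 0.16) and TEAD4 (-0.67, SE 0.096) lower. All of these passed with edgeR adjusted p-values of at most 0.0221.

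Of the 20 upstream regulators tested 3 were called with JG-98 in NeuT, 1 as higher and 2 as lower, beside 3.01% of all genes called, 2.01% as higher and 1.01% as lower. WWC3 rose (0.39, SE 0.099) and TAOK2 (-0.28, SE 0.067) and NF2, the gene of merlin (-0.24, SE 0.056), fell, with edgeR adjusted p-values of 0.0267 to 0.044. None of the 3 passed with only the 4 libraries compared, nor without any one of the 4 untreated libraries (0.0704 to 0.444). In the kinase core edgeR called 0 of 7 with the drug in either line. All genes called were 0.339% in Empty and 3.01% in NeuT. At an unadjusted edgeR p-value under 0.05 the core had 0 in Empty and 2 in NeuT, beside 1739 and 2829 of 17693 genes. Of the 9 coactivator, TEAD and VGLL genes edgeR called 0 in either line, with 1 in Empty and 0 in NeuT at that level.

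The relatives of the target genes also differed by member. In the CCN family 4 of 6 genes were tested and 2 called between the untreated lines, CCN1 and CCN5, both lower in NeuT, beside 20.8% of all genes called as lower. CCN5 was lower in NeuT, at 20.8 ± 1.6 CPM in untreated Empty and 4.01 ± 0.26 CPM in untreated NeuT (SD, n = 2 each; log2 difference -2.38, SE 0.19; edgeR adjusted p-value 1.69e-06). Of the receptor family of AXL, TYRO3 was lower too (-0.78, SE 0.089; edgeR adjusted p-value 2.07e-06), and MERTK had too few counts to be tested. Their ligand gene PROS1 was higher in NeuT, from 11.4 ± 0.047 to 24.6 ± 0.89 CPM (SD, n = 2 each; log2 difference 1.11, SE 0.083; edgeR adjusted p-value 1.11e-08). GAS6, the ligand of AXL, was at 155 ± 5.9 and 144 ± 3.1 CPM (SD, n = 2 each) and was not called (edgeR adjusted p-value 0.151). Between the treated lines CCN5 (-2.46, SE 0.19), TYRO3 (-0.58, SE 0.090) and PROS1 (0.95, SE 0.084) were called in the same directions, with edgeR adjusted p-values of at most 5.1e-05. Of the 4 CCN genes 1 was called there as lower and 1 as higher, beside 41.7% of all genes called. The higher one was CCN3 (2.25, SE 0.43; edgeR adjusted p-value 0.000448), at 6 and 15 counts in treated Empty and 64 and 47 in treated NeuT. GAS6 was lower there (-0.16, SE 0.055; edgeR adjusted p-value 0.0307), a call lost in 7 of 15 alternatives.

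Genes with the most similar pattern were taken by Pearson correlation of log2 CPM over the 8 libraries among 9542 well-measured genes, or 9543 for ANKRD1. The nearest to AXL was AGPS (r = 0.9971), followed by MAP7 and UNC13D (both 0.9961), and 651 genes had an r above 0.95. For CCN1 the nearest were ELF2 (r = 0.9787), LONP1 (0.9676) and DENND6A (0.9674), and 33 genes lay above 0.95. For CCN2 they were IGF1R (r = 0.9341), PPP4R1 (0.9316) and ELF4 (0.9275), with 0 genes above 0.95. For ANKRD1, at its few counts, they were WDR70 (r = 0.8667), DPY19L3 (0.8439) and BET1 (0.8354). The libraries of a line share its whole background, so these values only describe the profiles.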

How the data were processed

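Poly(A)-selected RNA of 8 MCF-10A libraries was sequenced, and groups were taken from the sample titles. The authors deposited raw counts per Ensembl gene in featureCounts layout, per the file headers. The submitters' processing notes name Trim Galore 0.5.0, FastQC 0.11.7, HISAT2 2.1.0, SAMtools 1.9, featureCounts 1.6.3 and limma, and the build GRCh38, without their roles. The annotation release and the handling of strand and of reads with several matches are not given in the sources used here. The authors also deposited, per line, a log2 fold change and an adjusted p-value per gene for treated against untreated cells. Symbols were found for 60261 of 60617 identifiers. Coordinates are 1-based and those of the count table.

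The counts were fitted with edgeR 4.0.16 in R 4.3.3: filterByExpr (minimum count 10, total 15), TMM factors, and 1 robust quasi-likelihood model over all 8 libraries with a coefficient per group and no block. Benjamini-Hochberg adjustment of p-values covered all 17693 genes tested. Standard errors are the log2 change divided by the square root of F. With 2 libraries per group a permutation test, exact for 1 gene, cannot reach 0.05. On simulated counts for 17233 genes, 200 were changed. The untreated line comparison recovered 94% of those changed by 1 on the log2 scale and 100% of those changed by 2, with 19 false calls. All groups were drawn with the same spread, taken from the fit. The simulation therefore cannot check calls where 42.0% of genes passed, or the wider replicate spread of treated NeuT. DESeq2 1.42.0, other scalings and filters, the block, smaller fits and single libraries left out were tried as alternatives. The genes and lists were chosen with earlier results of these data known. All 10 genes are reported. From each pathway list up to 3 rises and 3 falls were named per comparison, taking those called, without overlap between the libraries and averaging 50 counts or more. Others were named after their values were seen.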

Additional observations from a re-analysis of the deposited data

How the results depend on the processing

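The replicate numbers were not taken to pair the libraries, since nothing in the labels ties them and not every pair of groups correlated: differences between replicates correlated across groups with r from -0.101 to 0.244, the highest between the 2 treated groups. With the replicate number as a block, 3 in place of 4 of the 10 genes were called between the untreated lines, and all genes called with JG-98 numbered 66 in Empty and 593 in NeuT. Without the filter, AMOTL2 made 1 call with JG-98 in NeuT. Over the fits that left out 1 library each, the calls among the 10 ran from 2 (without untreated NeuT replicate 1) to 5 between the untreated lines, from 3 to 8 between the treated lines, from 0 to 6 for JG-98 in NeuT and from 0 to 2 for the interaction, and were 0 for JG-98 in Empty throughout. The upper end was reached without treated NeuT replicate 1 in the last 3 of these that varied.

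Small differences that were not called changed sign. With total counts, TEAD1 (-0.0481) and LATS1 (-0.0165) between the untreated lines and LATS2 (-0.0428) between the treated lines were reversed, as were TEAD1 for JG-98 in Empty with only the 4 libraries compared (0.000807) and the WWTR1 interaction without the filter (0.00112). Over single libraries left out, LATS2 between the treated lines ran from -0.176 to 0.223. For JG-98 in Empty, YAP1 ran from -0.0767 to 0.00635, TEAD1 from -0.127 to 0.104, LATS1 from -0.0882 to 0.0911, LATS2 from -0.135 to 0.154 and AXL from -0.118 to 0.0766. For JG-98 in NeuT, YAP1 ran from -0.0179 to 0.092, CCN2 from -0.306 to 0.213 and AXL from -0.0769 to 0.39. For the interaction, WWTR1 ran from -0.0658 to 0.0374, CCN1 from -0.126 to 0.532, CCN2 from -0.142 to 0.378, AMOTL2 from -0.0598 to 0.281 and AXL from -0.0595 to 0.407. The cause was not tested.

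All genes called with JG-98 moved by more than 1.5 times. In Empty 60 became 282 without the filter, 151 with DESeq2, 205 with only the 4 libraries compared and 9 to 417 with 1 library left out. In NeuT 533 became 1000 without the filter, 185 with the 4 libraries and 132 to 2133 with 1 left out. For the interaction 1 became 138 without the filter, 26 with DESeq2, 2 with total counts and 1 to 777 with 1 left out. Between the treated lines 52% of all calls were higher in NeuT with TMM and 41% with total counts. Depth limits ANKRD1, at 1 to 11 counts.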
